A study of Arabidopsis thaliana with 18 samples.

Results

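Sulfur-deficiency marker genes are transcripts that Arabidopsis raises when sulfate runs short, and 10 of them were followed here across the 18 libraries of the series. They were taken from the deposited table by their gene identifiers, with earlier results of these data known, and all 10 were found among the 32833 genes of the deposited table. They comprise SDI1 (AT5G48850) and SDI2 (AT1G04770), LSU1 (AT3G49580), LSU2 (AT5G24660), LSU3 (AT3G49570) and LSU4 (AT5G24655), GGCT2;1 (AT5G26220), BGLU28 (AT2G44460), SULTR4;2 (AT3G12520) and SHM7 (AT1G36370). SDI1, LSU1, LSU3 and GGCT2;1 are named in the main text of the paper on these libraries. There they were picked, out of a published list of genes responsive to sulfur deprivation, because they changed in the same data. SULTR4;2 appears only in a supplementary gene list, and the others are not named there.

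RNA was sequenced from whole rosettes of plants 20 d old, raised under 12 h of light and 12 h of darkness. One set was taken as the light period closed (ED, end of day, ZT 12 h) and the other as the dark period closed (EN, end of night, ZT 24 h), with 3 libraries for each genotype and time. The genotypes, all in the Col-0 background, were Col-0 itself as wild type, a line named SnRK1α1-OE in which the broadly active 35S promoter drives the kinase subunit SnRK1α1, and sesquiα2, a mutant with part of its SnRK1 function lost, which is homozygous for the snrk1α1-3 insertion and heterozygous for snrk1α2-2. Each library stands for 1 pool of several rosettes, so that fewer cells of a type and less RNA per cell cannot be told apart. Seedlings of sesquiα2 spent their first 6 d on BASTA plates before the move to soil, whereas Col-0 and SnRK1α1-OE were sown on soil, so that genotype and early growth cannot be told apart in any comparison of sesquiα2 with Col-0. SnRK1 is a protein kinase that is active when cellular energy is low, and the study asked what its gain or loss does to the transcriptome over the day.

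Plants take up sulfate, reduce it through adenosine 5′-phosphosulfate (APS) to sulfide, and join sulfide to O-acetylserine (OAS) to make cysteine, from which glutathione and other sulfur compounds are built. OAS builds up when sulfide is short, and a small group of transcripts that rises with it, among them SDI1, SDI2, LSU1, SHM7, GGCT2;1 and the APS reductase gene APR3, is known as the OAS cluster. Much of the transcriptional response to sulfur shortage depends on the transcription factor SLIM1 (EIL3). Known outputs are the release of stored sulfate from the vacuole, the breakdown of glutathione and glucosinolates, and a brake on the synthesis of new glucosinolates.

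Each library's deposited values, which amount to scaled reads, summed to between 37929523 and 37930213, and the libraries held 35050877 to 40416618 reads. In the SnRK1α1-OE libraries SnRK1α1 (AT3G01090) stood at 28710 to 32680, against 1685 to 1991 in Col-0. In the libraries labelled sesquiα2 it stood at 1672 to 1950, so that this transcript does not check that label, and SnRK1α2 (AT3G29160) gave a log2 fold change of −0.55 at ED (adjusted p = 0.0699, limma) and −0.14 at EN (adjusted p = 0.526). The 4 leaf markers summed to 833000 to 1270000 in every library. The 4 root hair markers summed to between 0 and 6.47, with no read of EXPA7 or LRX1 anywhere but some of PRP3 and COBL9. The 4 flower markers summed to between 8.77 and 46.7. TMM factors ran from 0.899 to 1.089, and Col-0 EN replicate 1 (0.982 against 0.899 and 0.904), SnRK1α1-OE EN replicate 1 (0.996 against 0.927 and 0.909) and sesquiα2 ED replicate 2 (1.089 against 0.981 and 1.003) lay above the others of their groups.

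The 10 genes lie on 4 chromosomes (coordinates on TAIR10.1, RefSeq annotation). LSU3 (chromosome 3, 18372404 to 18373147) and LSU1 (18374908 to 18375940) are neighbours on the minus strand with 1760 bases between them. LSU4 (chromosome 5, 8440601 to 8441364) and LSU2 (8443279 to 8444101) form a second such pair with 1914 bases between them. SDI1 (19805437 to 19807853) and GGCT2;1 (9162969 to 9164884) are also on chromosome 5. SDI2 (1336274 to 1337849) and SHM7 (13696042 to 13698739) are on chromosome 1, BGLU28 (18346306 to 18350026) on chromosome 2 and SULTR4;2 (3967816 to 3972135) on chromosome 3. The 4 LSU genes have a single exon each in the transcript used, and BGLU28 and SULTR4;2 have 13 and 17 exons. The coding sequences of LSU2 and LSU4 were 88.9% identical and those of LSU1 and LSU3 83.8%, but the longest identical stretch shared by any pair of LSU transcripts was 30 bases, well below the 150-base reads.

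The 300 bases before the gene start are shown for the 4 genes with the largest log2 fold changes in sesquiα2 against Col-0 at EN. Capitals mark the 5-letter core of the sulfur-responsive element (SURE), GAGAC, or its reverse complement GTCTC.
SDI1: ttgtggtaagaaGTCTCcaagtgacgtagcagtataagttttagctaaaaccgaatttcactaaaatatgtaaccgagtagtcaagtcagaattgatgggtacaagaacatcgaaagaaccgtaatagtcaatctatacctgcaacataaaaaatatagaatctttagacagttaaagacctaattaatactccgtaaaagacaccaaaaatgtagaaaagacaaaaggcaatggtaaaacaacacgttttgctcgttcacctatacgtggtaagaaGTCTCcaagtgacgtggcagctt
GGCT2;1: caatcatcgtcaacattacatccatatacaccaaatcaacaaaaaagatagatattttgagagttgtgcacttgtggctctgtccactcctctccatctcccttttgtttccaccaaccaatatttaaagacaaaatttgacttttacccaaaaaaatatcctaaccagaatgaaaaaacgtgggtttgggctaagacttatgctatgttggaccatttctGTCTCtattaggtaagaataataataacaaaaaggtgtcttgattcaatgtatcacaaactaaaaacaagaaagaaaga
LSU1: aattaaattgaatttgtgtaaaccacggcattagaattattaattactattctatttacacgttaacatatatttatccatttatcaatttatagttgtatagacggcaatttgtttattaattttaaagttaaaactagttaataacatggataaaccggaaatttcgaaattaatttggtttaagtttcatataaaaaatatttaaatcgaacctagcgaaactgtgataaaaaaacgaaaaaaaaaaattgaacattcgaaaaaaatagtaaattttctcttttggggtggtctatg
LSU3: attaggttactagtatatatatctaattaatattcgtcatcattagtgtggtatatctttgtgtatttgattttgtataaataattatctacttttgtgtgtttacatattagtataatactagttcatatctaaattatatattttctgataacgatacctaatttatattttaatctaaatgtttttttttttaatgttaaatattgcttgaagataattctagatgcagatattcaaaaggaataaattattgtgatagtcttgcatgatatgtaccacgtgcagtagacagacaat
These windows are chr5:19807854-19808153, chr5:9164885-9165184, chr3:18375941-18376240 and chr3:18373148-18373447 on TAIR10.1, in that order, all read from the minus strand. The letters were found in SDI1 at 288 and 23 bases before the start, in GGCT2;1 at 79 bases, and, among the windows not shown, in LSU4 at 126 bases and BGLU28 at 115 bases. That is 4 of the 10 marker genes, and 30% of all 27443 protein-coding promoters of this length held the letters too, so that the share is near the background. In SDI1 both copies sit inside a direct repeat of 25 identical bases, gtggtaagaaGTCTCcaagtgacgt, which begins 298 and 33 bases before the gene start. A direct repeat of at least 25 bases was present in 0.878% of all promoters of this length, and the longest in the other 9 marker genes was 12 bases, in BGLU28.

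In Col-0 at EN the marker genes spanned a wide range of levels per kilobase of transcript. SHM7 led at 791 ± 65.8 (SD, n = 3) scaled reads per kilobase and LSU2 followed at 637 ± 95.9, with overlapping libraries. SDI2 came next at 452 ± 22.8, apart from its neighbours in the order. SDI1 (130 ± 4.95) overlapped with SULTR4;2 (120 ± 18.8), and LSU1 (70.5 ± 10.3), LSU4 (60.3 ± 41.6) and LSU3 (47.4 ± 13.5) overlapped in that order. GGCT2;1 (14.4 ± 2.69) and BGLU28 (1.82 ± 2.08) were lowest, each apart from the gene above it. The 3 most abundant transcripts per length, SHM7, LSU2 and SDI2, are thus among the genes not named in the main text.

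**Figure D1:**
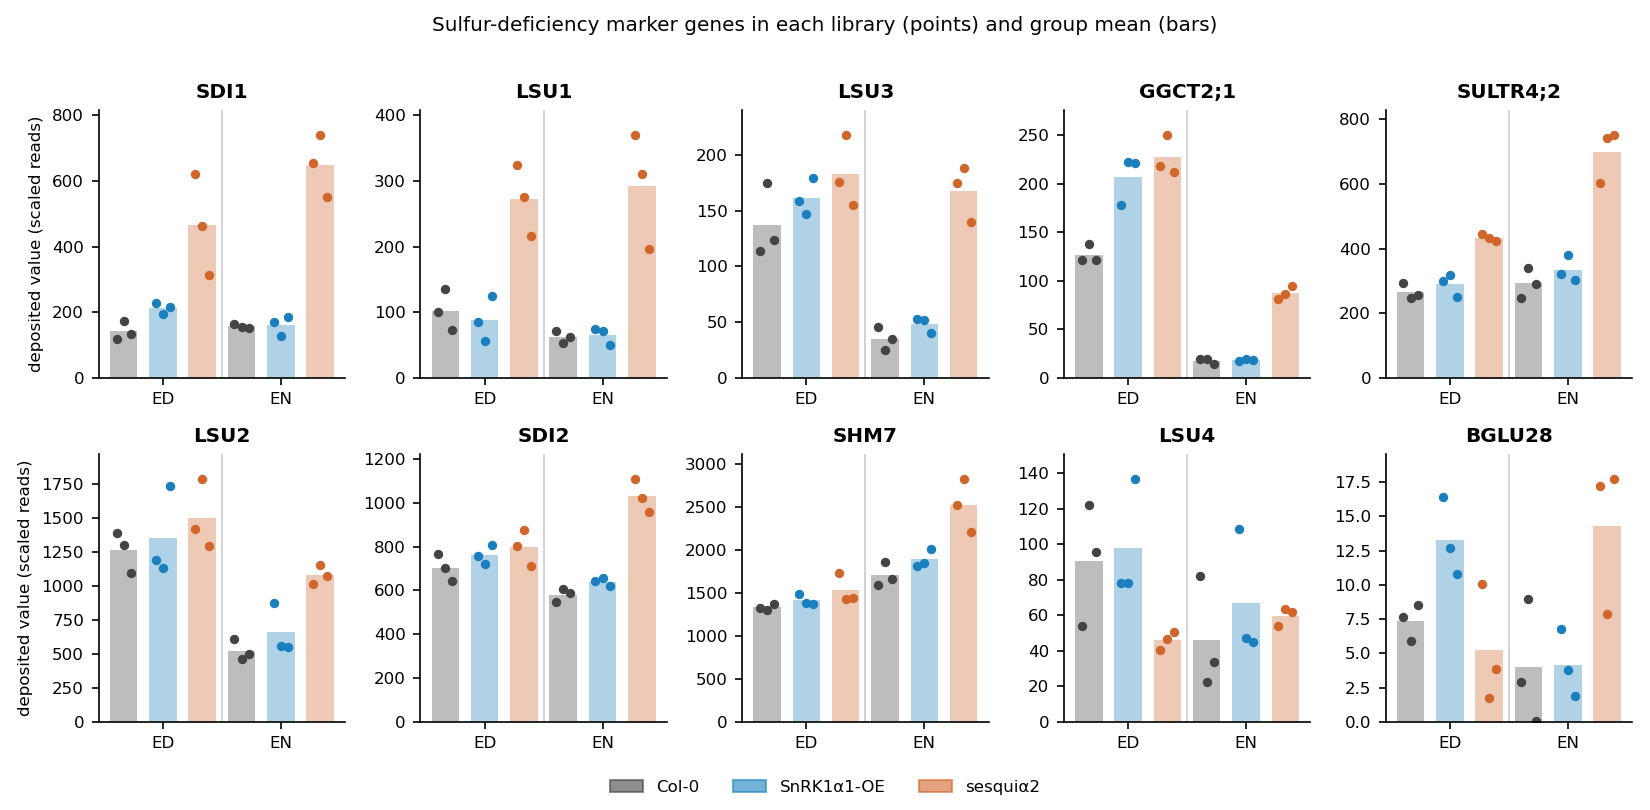
Deposited values (scaled reads, linear axis from 0) of the 10 marker genes, with 1 point per library and bars for the group means, at ED and EN. In the top row the 3 sesquiα2 points at EN lie above all 3 Col-0 points for SDI1, LSU1, LSU3, GGCT2;1 and SULTR4;2, while the SnRK1α1-OE points at EN overlap with Col-0 for the same genes.

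At the end of the night, 6 of the 9 marker genes tested were higher in sesquiα2 than in Col-0. SDI1, LSU1, LSU3 and GGCT2;1 rose more than 4-fold, and SULTR4;2 and LSU2 rose 2.4-fold and 2.07-fold. A gene was called when its adjusted p was under 0.05 in limma and its absolute log2 fold change at least 1, and among all genes tested 0.792% were called higher. At the adjusted p alone, 8 of the 9 were higher, against 1.84% of all genes. The median log2 fold change of the marker genes was 1.26, beside 0.10 over all genes tested. The paper named 4 of the 9 because they changed in these libraries, so these counts and this median are not independent of that choice. Of the 5 others, 2 were called, 4 were higher at the adjusted p alone, and the median was 0.83. Values of sesquiα2 against Col-0 at EN are to be read against the all-gene median of 0.10, and those of other comparisons against their own all-gene medians. Against Col-0 these were 6.58e-04 for sesquiα2 at ED, and 0.03 and −0.12 for SnRK1α1-OE at EN and ED. Between EN and ED they were −0.16 in Col-0 and −0.03 in both SnRK1α1-OE and sesquiα2. An exact permutation test on 1 gene cannot go below a p of 0.1 with 3 libraries a group.

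SDI1 encodes a tetratricopeptide repeat protein that represses aliphatic glucosinolate synthesis through the factor MYB28. At EN it stood at 164, 156 and 153 in Col-0 and at 655, 742 and 550 in sesquiα2. The groups lay far apart, and the log2 fold change was 2.03 (SE 0.152, adjusted p = 3.63e-04, limma). Its relative SDI2 stood at 548, 605 and 589 in Col-0 and at 1110, 1024 and 957 in sesquiα2. SDI2 was also higher in every sesquiα2 library, but by 1.77-fold (log2 0.83, SE 0.109, adjusted p = 0.00475), under the fold limit. SDI2 shares 431 bases with AT1G04760 on the opposite strand, and whether reads were counted by strand is not given in the sources used here. AT1G04760 stood at 41.8 to 61.9 in Col-0 and 66.1 to 71.7 in sesquiα2 at EN, far below SDI2.

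The LSU genes encode small coiled-coil proteins that bind many partners and are among the strongest known responders to sulfur shortage. LSU1 stood at 71.5, 53.2 and 62.6 in Col-0 and at 371, 310 and 197 in sesquiα2 at EN, which is a difference of 2.17 on the log2 scale (SE 0.256, adjusted p = 0.00331, limma). Its neighbour LSU3 stood at 45.4, 25.3 and 35.2 in Col-0 and at 175, 188 and 140 in sesquiα2, a difference of 2.25 (SE 0.27, adjusted p = 0.00359). In both genes the lowest sesquiα2 library was well above the highest Col-0 library.
The second pair differed from this. LSU2 stood at 613, 463 and 498 in Col-0 and at 1012, 1158 and 1075 in sesquiα2, a log2 change of 1.05 (SE 0.131, adjusted p = 0.00377, limma) that lies just above the fold limit. It was 0.95 with median-ratio scaling, 0.96 with the edgeR quasi-likelihood test on recovered reads and 0.97 without Col-0 EN replicate 2, and the call was then lost on the fold limit alone. LSU4 stood at 82.2, 22.5 and 33.5 in Col-0 and at 54.2, 63.4 and 61.9 in sesquiα2, so that the groups overlapped through Col-0 EN replicate 1. Its log2 fold change was 0.58 (95% interval −0.38 to 1.53, adjusted p = 0.496), and it was 1.09 (adjusted p = 0.0317) without that library. This was the only 1 of 13 alternative fits to call LSU4, and its adjusted p reached 0.871 among them.

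GGCT2;1 is a γ-glutamyl cyclotransferase that breaks down glutathione and so returns its amino acids. It was the marker gene with the largest log2 fold change at EN, 2.26 (SE 0.28, adjusted p = 0.00377, limma), from 19.3, 19.6 and 13.8 in Col-0 to 81.2, 85.9 and 94.3 in sesquiα2. SULTR4;2 carries sulfate out of the vacuole. It stood at 247, 339 and 290 in Col-0 and at 602, 744 and 753 in sesquiα2, a log2 change of 1.26 (SE 0.158, adjusted p = 0.00377). For both genes the sesquiα2 libraries stood above all Col-0 libraries.
SHM7 belongs to the serine hydroxymethyltransferase family, whose enzymes interconvert serine and glycine. It stood at 1592, 1866 and 1663 in Col-0 and at 2527, 2832 and 2217 in sesquiα2, higher by 1.48-fold (log2 0.56, SE 0.118, adjusted p = 0.0368). SHM7 was therefore higher in every sesquiα2 library without reaching the fold limit. Its adjusted p was 0.124 with median-ratio scaling, 0.116 with the edgeR quasi-likelihood test and 0.0776 to 0.155 when any single library other than Col-0 EN replicate 1 was left out.
BGLU28 is a β-glucosidase that hydrolyses glucosinolates under sulfur shortage. It was not tested at EN because too few libraries reached a value of 10. Its reads numbered 3, 9 and 0 in Col-0 and 16, 8 and 18 in sesquiα2, so that the groups overlapped at a depth where single reads decide.

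All 3 sesquiα2 libraries lay above all 3 Col-0 libraries for 8 of the 9 genes tested at EN, LSU4 being the exception, against 18.8% of all genes tested. The 4 genes named in the main text had log2 fold changes of 2.03 to 2.26, and the 5 tested genes not named there had 0.56 to 1.26, so that the ranges did not meet. The named genes come from a published list of sulfur-responsive genes and were reported because they changed in these libraries. The difference between the sets therefore cannot be told apart from that choice. Of the genes not named, SULTR4;2 and LSU2 were called, and SDI2 and SHM7 passed the adjusted p alone.
Other-tissue markers were compared at the same time. The 4 root hair markers summed to 3.92 to 6.47 in sesquiα2 and 0 to 4 in Col-0 at EN, with EXPA7 and LRX1 at 0, and the 4 flower markers summed to 8.77 to 13.6 and 18.9 to 46.7. Their part in the results on the marker genes was not tested.

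**Figure D2:**
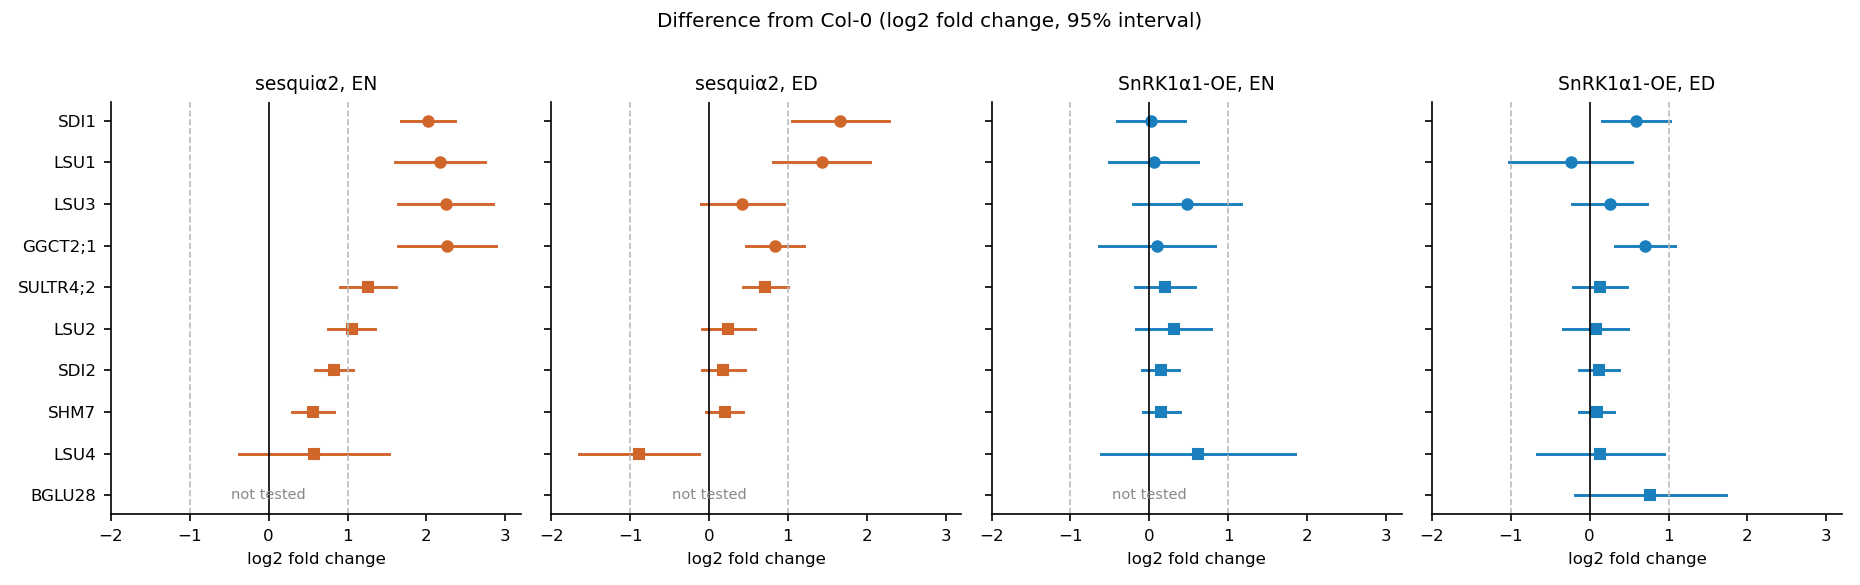
Log2 fold change of each marker gene against Col-0 with its 95% interval (limma), for sesquiα2 and SnRK1α1-OE at EN and ED. Circles are genes named in the main text, squares the others, and dashed lines mark log2 fold changes of −1 and 1. At EN in sesquiα2 the circles lie between 2.03 and 2.26 and the squares between 0.56 and 1.26, and at EN in SnRK1α1-OE all tested genes lie between 0.02 and 0.62.

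At the end of the day none of the 9 marker genes tested was called in sesquiα2, although SDI1 and LSU1 stood 3.17-fold and 2.69-fold higher than in Col-0. Among all genes tested, 0.123% were called higher. At an unadjusted p under 0.05 the tests of the whole table gave 2776 genes, and edgeR called 0 marker genes as well. SDI1 stood at 118, 175 and 135 in Col-0 and at 620, 463 and 312 in sesquiα2 (log2 fold change 1.67, SE 0.266, adjusted p = 0.0554, limma). Every sesquiα2 library was above every Col-0 library, and the sesquiα2 libraries were widely spread among themselves. LSU1 stood at 100, 135 and 72.3 in Col-0 and at 325, 276 and 217 in sesquiα2 (log2 fold change 1.43, SE 0.264, adjusted p = 0.0776). Both genes were called without Col-0 ED replicate 1 (adjusted p = 0.0324 and 0.0372) and in a fit of all 18 libraries (4.35e-04 and 0.0168). Of 13 alternative fits, however, SDI1 was called in 3 and LSU1 in 2, with adjusted p up to 0.256 and 0.334.
GGCT2;1 stood at 121, 138 and 121 in Col-0 and at 218, 251 and 212 in sesquiα2, a log2 change of 0.83 (SE 0.159, adjusted p = 0.085). SULTR4;2 gave 0.71 (SE 0.122, adjusted p = 0.0627), from 246 to 292 in Col-0 to 424 to 444 in sesquiα2. For both genes the groups did not overlap and the adjusted p missed the threshold. SHM7 gave 0.20 and was also above Col-0 in every library, which makes 5 marker genes with that order, against 11.2% of all genes tested. SDI2, LSU2 and LSU3 overlapped with Col-0, with log2 fold changes of 0.18, 0.24 and 0.42. LSU4 went the other way, at 54.2, 122 and 95.5 in Col-0 and 40.7, 46.6 and 50.8 in sesquiα2 (log2 fold change −0.89, 95% interval −1.65 to −0.13, adjusted p = 0.29). Without Col-0 ED replicate 1 its log2 fold change was −1.22 (adjusted p = 0.0439). This was the only 1 of 13 alternative fits to call LSU4, and its adjusted p reached 0.649 among them. BGLU28 was again too low to test, with 8, 6 and 9 reads in Col-0 and 10, 2 and 4 in sesquiα2.

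Whether the effect of sesquiα2 differed between EN and ED was tested as an interaction over 12 libraries. LSU3 and GGCT2;1 were called, and both differed more from Col-0 at EN, by 1.82 (SE 0.355, adjusted p = 0.0431, limma) and 1.43 (SE 0.28, adjusted p = 0.0444) on the log2 scale. Among all genes tested, 0.403% were called in this direction, and the median interaction was 0.115. Both calls sit close to the threshold and both were lost when any of 9 of the 12 libraries was left out, with log2 differences between 1.61 and 1.95 for LSU3 and between 1.27 and 1.51 for GGCT2;1 in those fits. SDI1 and LSU1 gave interactions of 0.36 (SE 0.32, adjusted p = 0.598) and 0.75 (SE 0.39, adjusted p = 0.349), so that no difference between the times was detected for them. SULTR4;2 gave 0.55 (adjusted p = 0.185), SHM7 0.36 (adjusted p = 0.262) and LSU4 1.47 (adjusted p = 0.221). BGLU28 gave the largest difference, 2.72 (95% interval 0.35 to 5.09, adjusted p = 0.226), but entered the fit only through sesquiα2 libraries. For SDI2 (0.65, adjusted p = 0.0751) and LSU2 (0.81, adjusted p = 0.0838) the adjusted p missed the threshold. LSU2 was called without Col-0 EN replicate 1 (0.93, adjusted p = 0.0459) or sesquiα2 ED replicate 2 (0.94, adjusted p = 0.0431), and SDI2 without Col-0 ED replicate 1 (0.59, adjusted p = 0.0431) or in the fit of all 18 libraries (adjusted p = 0.0315). Each was called in only 2 of 19 alternative fits, with adjusted p up to 0.209 for LSU2 and 0.175 for SDI2.

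None of the 9 marker genes tested was called between SnRK1α1-OE and Col-0 at EN, where 0.067% of all genes were called. The adjusted p was 1 for each of them, 764 genes of the whole table had an unadjusted p under 0.05, and edgeR also called 0 marker genes. SDI1 stood at 170, 127 and 187 in SnRK1α1-OE, around the 153 to 164 of Col-0 (log2 fold change 0.02, 95% interval −0.42 to 0.45). LSU1 gave 0.05 (−0.51 to 0.62) and GGCT2;1 0.10 (−0.64 to 0.83). These intervals leave out changes of the size seen in sesquiα2, but not smaller ones. The interval of LSU3 ran from −0.21 to 1.16, and that of LSU4, the widest of the 9, from −0.61 to 1.84. LSU4 was 108 in SnRK1α1-OE EN replicate 1 and 47.2 and 45.2 in the other libraries. Replicate 1 was the highest in Col-0 at EN too, at 82.2 against 22.5 and 33.5. SDI2, SHM7, SULTR4;2 and LSU2 gave 0.14, 0.15, 0.20 and 0.31. All 9 log2 fold changes were above 0, as were those of 11165 of the 19408 genes tested.
At ED none of the 10 was called either, with 0.179% of all genes called. Here GGCT2;1 stood at 178, 223 and 221 in SnRK1α1-OE against 121 to 138 in Col-0 (log2 fold change 0.70, 95% interval 0.32 to 1.08, adjusted p = 0.081, limma). SDI1 stood at 229, 193 and 216 against 118 to 175 (0.59, 95% interval 0.16 to 1.02, adjusted p = 0.123). Both genes, with BGLU28 and SHM7, had all 3 SnRK1α1-OE libraries above Col-0, an order seen in 11% of all genes tested. At an unadjusted p under 0.05 there were 4880 genes in this comparison, and edgeR called 0 marker genes. BGLU28 reached 16, 12 and 10 reads in SnRK1α1-OE and 8, 6 and 9 in Col-0 (log2 fold change 0.77, adjusted p = 0.276). It entered the fit only because its SnRK1α1-OE libraries reached a value of 10, so that its place above Col-0 is not independent of that rule. For LSU1 the log2 fold change was −0.24 (−1.02 to 0.54), with overlapping libraries. Those of the other 9 marker genes were above 0, as were those of 7087 of the 19576 genes tested. No interaction of SnRK1α1-OE with the time of day was called for any marker gene, at a background of 0.21%, with an unadjusted p under 0.05 in 4110 genes of the table and 0 marker genes called by edgeR. The log2 differences ran from −0.61 to 0.48, with a median of 0.07 beside 0.14 over all genes tested. The lowest were GGCT2;1 (−0.61, 95% interval −1.25 to 0.04, adjusted p = 0.27, limma) and SDI1 (−0.57, 95% interval −1.14 to −0.0031, adjusted p = 0.242).

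Within Col-0, GGCT2;1, LSU3 and LSU2 were lower at EN than at ED. GGCT2;1 dropped from 121, 138 and 121 to 19.3, 19.6 and 13.8, a log2 change of −2.80 (SE 0.257, adjusted p = 1.41e-04, limma). LSU3 gave −1.94 (SE 0.299, adjusted p = 0.00158), from 114 to 175 down to 25.3 to 45.4. LSU2 gave −1.27 (SE 0.148, adjusted p = 4.32e-04), from 1097 to 1387 down to 463 to 613. These are 3 of the 9 genes tested, while 13.2% of all genes were called lower at EN in Col-0 and the median log2 change of all genes was −0.16. The other LSU genes also had lower means at EN without being called (LSU1 −0.67, adjusted p = 0.0908, and LSU4 −1.09, adjusted p = 0.124). LSU4 was called lower in the fit of all 18 libraries (adjusted p = 0.0408) and without Col-0 EN replicate 1 (−1.61, adjusted p = 0.018), when the count was 4. These were 2 of 13 alternative fits, and the adjusted p of LSU4 reached 0.337 among them. SDI1 and SULTR4;2 gave 0.16 and 0.14 with overlapping libraries, and SHM7 was slightly higher at EN in every library (0.35, adjusted p = 0.0253). SDI2 was lower at EN in every library without being called (−0.27, adjusted p = 0.0885).
SnRK1α1-OE had the same 3 genes lower at EN, and BGLU28 with them. GGCT2;1 fell from between 178 and 223 to between 17.4 and 19.8 (log2 fold change −3.40, SE 0.222, adjusted p = 3.07e-06), LSU3 gave −1.72 (adjusted p = 1.72e-04) and LSU2 −1.04 (adjusted p = 0.00381). BGLU28 went from 16, 12 and 10 reads to 7, 4 and 2 (−1.57, SE 0.518, adjusted p = 0.0332). It entered the fit only because its 3 ED libraries reached a value of 10, at 16.4, 12.7 and 10.8. Its EN values were 6.8, 3.8 and 1.9, so that its call is not independent of its high values at ED. The count was 4 of 10 with BGLU28 included, against 9.46% of all genes. The count was 2 without SnRK1α1-OE ED replicate 3, EN replicate 2 or EN replicate 3, when LSU2 was not called. BGLU28 was not called without either of these EN libraries, and was not tested when any SnRK1α1-OE ED library was left out. In the fit of all 18 libraries BGLU28 had an adjusted p of 0.0761. Without SnRK1α1-OE EN replicate 1 LSU4 was called as well (−1.02, adjusted p = 0.0193), the only 1 of 13 alternative fits to call it. SDI1 (−0.41, adjusted p = 0.103) and SDI2 (−0.25, adjusted p = 0.0944) were lower at EN in every library without being called. SHM7 was higher at EN in every library (0.42, adjusted p = 0.0102), under the fold limit.
In sesquiα2 only GGCT2;1 was called lower at EN, 1 of 10 against 8.59% of all genes. It went from 218, 251 and 212 to 81.2, 85.9 and 94.3 (log2 fold change −1.37, SE 0.175, adjusted p = 1.72e-04, limma), and its EN libraries still lay below its ED libraries. LSU3 was not called, at 176, 218 and 155 at ED and 175, 188 and 140 at EN (−0.12, adjusted p = 0.638), with overlapping libraries. LSU2 was 0.46 lower on the log2 scale (adjusted p = 0.0116), without reaching the fold limit. SULTR4;2 (0.68, adjusted p = 0.0011), SHM7 (0.72, adjusted p = 6.17e-04) and SDI2 (0.37, adjusted p = 0.0164) were higher at EN in every library, likewise under the limit. The comparisons between times share libraries with the comparisons between genotypes, so that they are not independent of them.

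**Figure D3:**
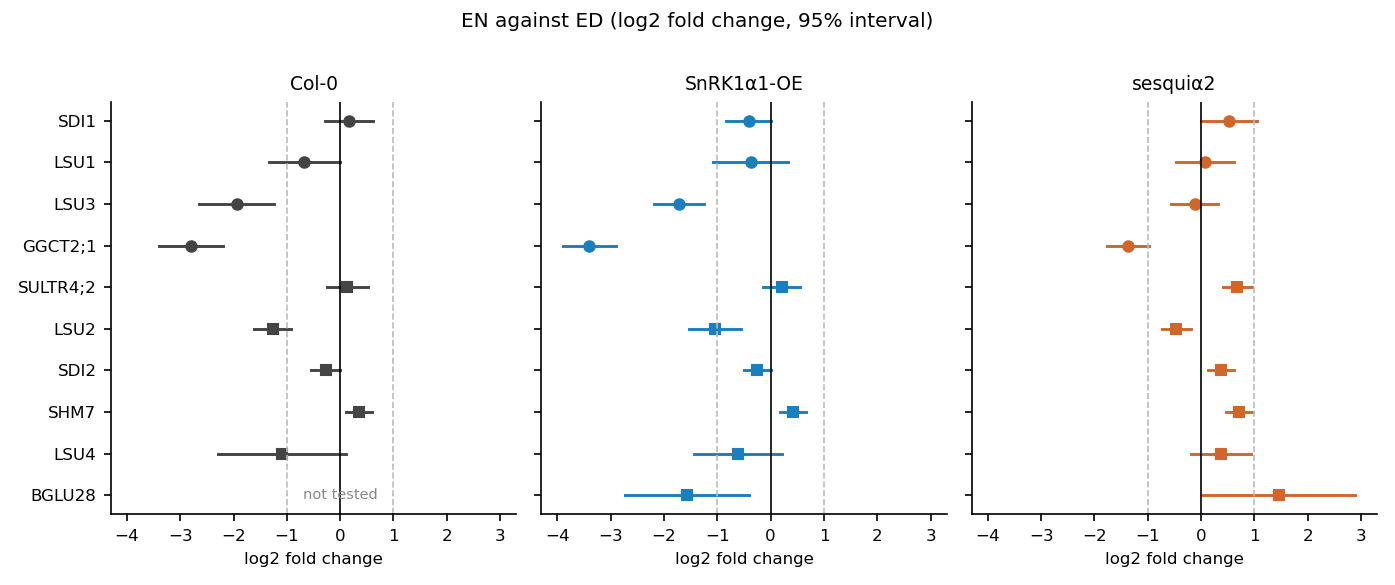
Log2 fold change of each marker gene at EN against ED with its 95% interval (limma), in Col-0, SnRK1α1-OE and sesquiα2. GGCT2;1 lies at −2.80, −3.40 and −1.37 and LSU3 at −1.94, −1.72 and −0.12, while SHM7 lies above 0 in each panel.

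A list of 30 genes of sulfate transport, assimilation and glutathione synthesis was compared beside the marker genes. At EN in sesquiα2, 28 were tested and 1 was called higher, which is 3.57% against 0.792% of all genes, and 0 were called lower. Their median log2 fold change was 0.25, beside 0.10 for all genes. The gene called was SERAT3;2, a serine acetyltransferase that makes OAS, at 166, 117 and 109 in Col-0 and 246, 288 and 320 in sesquiα2 (log2 fold change 1.14, SE 0.207, adjusted p = 0.0208, limma). The paper had already listed it among the sulfur genes raised in sesquiα2 at EN in these libraries. Under the fold limit but at an adjusted p under 0.05 were the sulfate transporter genes SULTR1;2 (0.75, adjusted p = 0.00806), SULTR3;1 (0.68, adjusted p = 0.0231), SULTR4;1 (0.62, adjusted p = 0.029) and SULTR2;2 (0.48, adjusted p = 0.038), the APS reductase gene APR1 (0.77, adjusted p = 0.00463) and, in the other direction, the ATP sulfurylase gene ATPS4 (−0.68, adjusted p = 0.0166). SULTR4;1 is the close relative of SULTR4;2 at the vacuole, and its log2 fold change was smaller than the 1.26 of SULTR4;2. APR3, the remaining gene of the OAS cluster, gave 0.41 (adjusted p = 0.0854), from 2837, 3030 and 2663 to 3446, 4238 and 3658. SLIM1 gave 0.15 (adjusted p = 0.493).
At ED in sesquiα2, and at both times in SnRK1α1-OE, 0 of the 28 genes were called. The interaction of sesquiα2 with time was called for APR1 (SE 0.178 on the log2 scale, adjusted p = 0.027) and SULTR3;1 (SE 0.226, adjusted p = 0.048), each with a ratio of 2.15 between the fold changes at EN and at ED. These are 7.14% of the 28 genes, against 0.403% of all genes. APR1 stood at 7486 ± 1360 (SD, n = 3) in Col-0 and 5926 ± 617 in sesquiα2 at ED, and at 2688 ± 205 and 4590 ± 229 at EN. Its sesquiα2 libraries lay below all Col-0 libraries at ED (adjusted p = 0.364) and above them at EN. Between EN and ED in Col-0, 6 genes of the list rose (21.4%, against 7.63% of all genes) and 2 fell (7.14%, against 13.2%). In the SnRK1α1-OE line 6 rose, against 7.88% of all genes, and 1 fell (3.57%, against 9.46%). In the mutant 6 rose, against 8.39% of all genes, and 0 fell, against 8.59%.
Of the 10 paralogs of the marker genes, 8 were tested in sesquiα2 at EN and 0 were called, with a median of −0.0035. SHM5 came nearest, at 1.09 (adjusted p = 0.0671), while GGCT2;2 and GGCT2;3 gave −0.33 and −0.09. The 3 factors of aliphatic glucosinolate synthesis, MYB28, MYB29 and MYB76, were not called in either line. MYB28, the factor that SDI1 binds, gave 0.35 (adjusted p = 0.311) and MYB29 0.84 (adjusted p = 0.044) in sesquiα2 at EN.

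**Figure D4:**
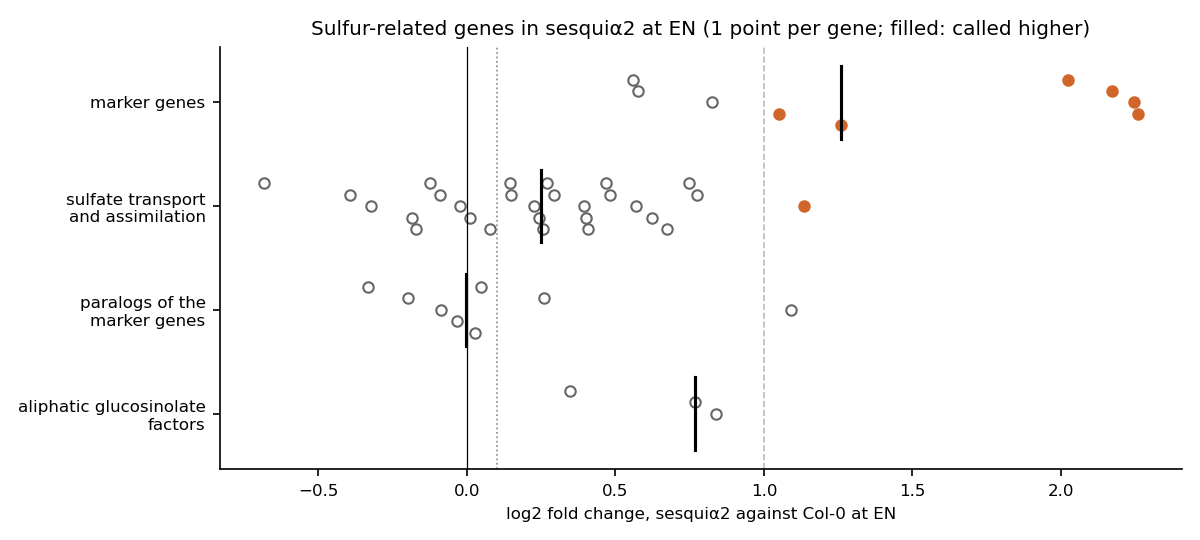
Log2 fold change in sesquiα2 against Col-0 at EN of the marker genes and of related lists, 1 point per gene tested, filled where called higher. Black bars are list medians (1.26 for the marker genes, 0.25 for sulfate transport and assimilation), the dotted line is the median of all genes (0.10) and the dashed line a log2 fold change of 1. The paper named 4 of the marker genes because they changed in these libraries, so their list median is not independent of that choice.

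The genes most like the marker genes in pattern were sought over the 18 libraries, by the root mean square difference between each gene's centred log2 values and the median of the marker genes. The nearest were FLZ3 (AT2G44670, 0.269), BHLH137 (AT5G50915, 0.279), TPPF (AT4G12430, 0.289), NET3C (AT2G47920, 0.291) and AT4G16447 (0.293), beside a median of 0.587 over all genes compared. Among the marker genes themselves, LSU2 (0.288) and SDI2 (0.306) were nearest to their own median profile, followed by SULTR4;2 (0.481) and LSU3 (0.511). SDI1 (0.564), SHM7 (0.572) and LSU1 (0.586) lay close to the median distance of all genes compared. LSU4 (0.672), BGLU28 (0.892) and GGCT2;1 (1.11) lay beyond it, so that this profile is not 1 that the marker genes share. FLZ3 is a zinc finger protein of a family that binds SnRK1 subunits, and TPPF a trehalose 6-phosphate phosphatase. FLZ3 averaged 4730 at ED and 3440 at EN in Col-0, and 6310 and 6110 in sesquiα2. This likeness describes libraries that share their genotype and time, and no test was made of it.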

How the data were processed

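RNA-seq libraries (poly-A, 150-base paired reads, BGISEQ-500) of whole rosettes were mapped by the authors with HISAT2 to TAIR10 and counted with featureCounts, as the submitters' processing notes list the tools. With edgeR the authors then derived pseudo-counts and TMM factors. The deposited signal is the product of both, which behaves as reads brought to one library total. It was given for 32833 genes, of which 32548 are in the RefSeq annotation of TAIR10.1. Whole reads were recovered by inverting this calculation: 590991 of 590994 values came out whole within 0.1 reads. Values of 2 reads (16440) outnumbered those of 1 read (6803), so single reads are not independent fragments.

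limma (version 3.58.1, R 4.3.3, trend and robust settings) was run on log2(value + 1). Genes entered a fit when 3 or more of its libraries reached 10 and the values summed to 15 or more. P-values were adjusted over all genes tested by the Benjamini-Hochberg method. A call required both a p under 0.05 after adjustment and a 2-fold difference (1 on the log2 scale), whereas interactions needed the adjusted p alone. Fold changes are on the log2(value + 1) scale, which understates those of low genes. Levels between genes were divided by the deposited gene length.

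The marker genes and the other lists were chosen with earlier results of these data known. Every marker gene is described, but its value is not given for every comparison. By rule, genes of the other lists are named where called between a line and Col-0, with the 5 genes nearest in pattern. Those named without being called there were chosen after their values were seen. Alternatives were pseudocounts of 0.125 and 4, no filter, median-ratio scaling, a fit of all 18 libraries, a replicate block and the omission of each library in turn. The edgeR (version 4.0.16) quasi-likelihood test on recovered reads was added after seeing the data. Promoters are the 300 bases before each RefSeq gene start.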

Additional observations from a re-analysis of the deposited data

Results flagged for a closer look

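The effect of sesquiα2 on LSU3 and on GGCT2;1 differed between EN and ED by the interaction test, by 1.82 and 1.43 on the log2 scale. Their values in each library are given above. The cause of the difference was not tested.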

How the results depend on the processing

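In sesquiα2 against Col-0 at EN, SDI1, LSU1, LSU3, GGCT2;1 and SULTR4;2 were called under all 13 alternatives, and the number of marker genes called was 5 to 7 when a library was left out. With 0 called at ED in sesquiα2, the count was 1 without the filter (SDI1) and 2 in the fit of all 18 libraries (SDI1 and LSU1). It was 0 to 3 when a library was left out. The 3 were SDI1 and LSU1 called higher and LSU4 called lower, without Col-0 ED replicate 1. For EN against ED in SnRK1α1-OE it was 2 to 5 when a library was left out. For the interaction of sesquiα2 with time, where 2 were called, it was 0 without the filter, 0 with the replicate block, and 0 to 3 when a library was left out. The replicate numbers were taken only as names, since in no comparison did all 3 same-numbered pairs of libraries correlate above 0.1 in their deviations from the group means. Some pairs did correlate, with r of 0.596, 0.007 and 0.37 in SnRK1α1-OE against Col-0 at EN, and 0.365, 0.323 and 0.055 between EN and ED in Col-0. Others were negative, down to −0.469 in SnRK1α1-OE against Col-0 at ED. An effect shared by same-numbered libraries was not tested. The replicate block gave 6 marker genes called in sesquiα2 at EN, 0 in SnRK1α1-OE at EN, and 3 between EN and ED in Col-0. The edgeR quasi-likelihood test on recovered reads called 235 genes in sesquiα2 at EN where limma called 236, and 5 marker genes where limma called 6. Median-ratio scaling moved the all-gene median from 0.10 to 0.00471 in sesquiα2 at EN and from −0.16 to 0.00633 between EN and ED in Col-0. No result changed its direction among those called. Causes were not tested. Depth limits BGLU28, whose libraries held 0 to 18 reads.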
